A study of Danio rerio with 8 samples.

Results

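The CCT chaperonin, also called TRiC, is a barrel in the cytosol that closes around newly made proteins and folds them with energy from ATP. It is built from a pair of stacked rings, each holding 8 related subunits once. Actin and tubulin depend on it for their folding, as do many proteins with WD40 repeats, and the prefoldin complex hands unfolded actin and tubulin to it. The genes described are the rows of a zebrafish count table whose symbol is tcp1, cct2, cct3, cct4, cct5, cct6a, cct7 or cct8, case ignored. Of these 8 symbols, 7 were found, and cct2 stood at 2 Ensembl identifiers, which gave 8 rows among 31901 in the table. All 8 rows were among the 18289 that passed the filter on low counts. No row was matched to cct6a. The symbol table gives the name CCT6B to ENSDARG00000021252, whose values are given beside the members without being counted with them. That row may be the zebrafish cct6a gene under another name, which was not settled here.

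RNA of kdrl-positive cells, isolated from zebrafish embryos 28 hours after fertilization, was sequenced in 4 libraries of sf3b1 mutants and 4 libraries of their siblings. sf3b1 encodes a splicing factor of the U2 snRNP, which binds branch points in introns, and kdrl encodes a VEGF receptor of vascular endothelium. The labels do not say which sf3b1 allele the mutants carried, which genotypes the siblings had, how many embryos went into a library and whether replicates were separate clutches. The p-values therefore measure the spread between these libraries only, which may be technical. The libraries held 10035886 to 13277963 counts. SF3B1 itself (ENSDARG00000056138) had 151.3, 149.6, 187.9 and 162.3 CPM in mutant libraries 1 to 4, against 313.2, 211.5, 310.6 and 353.9 CPM in sibling libraries 1 to 4. CPM are counts scaled to a common library size, so they give a share of a library's RNA and not an amount per cell. The gene kdrl, by which the isolated cells are named, had 689.8 to 1625 CPM in mutant and 628 to 1064 CPM in sibling libraries. It did not pass (log2 fold change 0.50 ± 0.241, edgeR adjusted p = 0.167) but was called higher with the replicate number as a block (0.47, edgeR adjusted p = 0.0172) and without mutant replicate 1 (0.68). Among 8 endothelial marker genes tested, 1 (clec14a) rose and none fell (12.5% called higher, beside 9.92% of all genes tested), and their summed level was 2568 to 5063 CPM in mutant and 2435 to 4107 CPM in sibling libraries. Markers of other cells were present too, and those of erythroid, leukocyte and neural cells differed between the groups. Of the erythroid markers 7 of 9 fell (77.8%, beside 11.4% of all genes tested) and 2 did not pass. Of these 2, gata1a averaged 51.7 ± 17.3 CPM in mutant, against 31 ± 9.46 CPM in sibling libraries. Its log2 fold change was 0.74 ± 0.286 (edgeR adjusted p = 0.0831), while the other was lower in mutants on average. The summed level of the erythroid markers was 2400 to 3611 CPM in mutants and 6154 to 13497 CPM in siblings. Of the leukocyte markers 8 of 9 fell (88.9%, summed level 137 to 327 CPM in mutants, 739 to 1003 CPM in siblings). Of the neural markers 6 of 10 fell (60%, summed level 401 to 441 CPM in mutants, 982 to 1488 CPM in siblings). Of the skeletal muscle markers 1 of 5 (UNC45B) rose (20%, beside 9.92% of all genes tested) and none fell. Their summed levels overlapped, with 105 to 441 CPM in mutants and 224 to 349.7 CPM in siblings, and their median log2 fold change was -0.44. HBE1 among the erythroid and MFAP4 among the leukocyte markers stood at several identifiers, so the counts above are of rows. Reads can be split among close copies. For HBE1 and MFAP4 alike, 1 identifier had no count in any library. In such bulk samples, fewer cells of a type and less RNA per cell cannot be told apart, and the part of these cells in the results below was not tested.

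Transcripts of most CCT subunits were higher in the mutants. CCT3, CCT4, CCT5, CCT7 and CCT8 rose, by 1.45-fold to 1.76-fold, and TCP1 and both cct2 rows did not pass the test. That is 5 of 8 rows called higher and none called lower, where 9.92% of all genes tested were called higher and 11.4% lower (edgeR quasi-likelihood test, Benjamini-Hochberg adjusted p under 0.05 over all 18289 genes). In 6 of the 8 rows, those of the 5 risers and TCP1, every mutant library lay above every sibling library, against 12.6% of all genes tested. The median log2 fold change of the 8 rows was 0.57, beside a median of all genes that differed from 0 by less than 0.01. The summed level of the 8 rows was 3057, 3071, 2612 and 3235 CPM in mutant libraries 1 to 4, against 2205, 2337, 1797 and 2063 CPM in sibling libraries 1 to 4. Mutant libraries thus averaged 2994 ± 267 CPM and sibling libraries 2100 ± 231 CPM (SD, n = 4 each), a ratio of 1.43. The lowest mutant library stood above the highest sibling library.

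**Figure D1:**
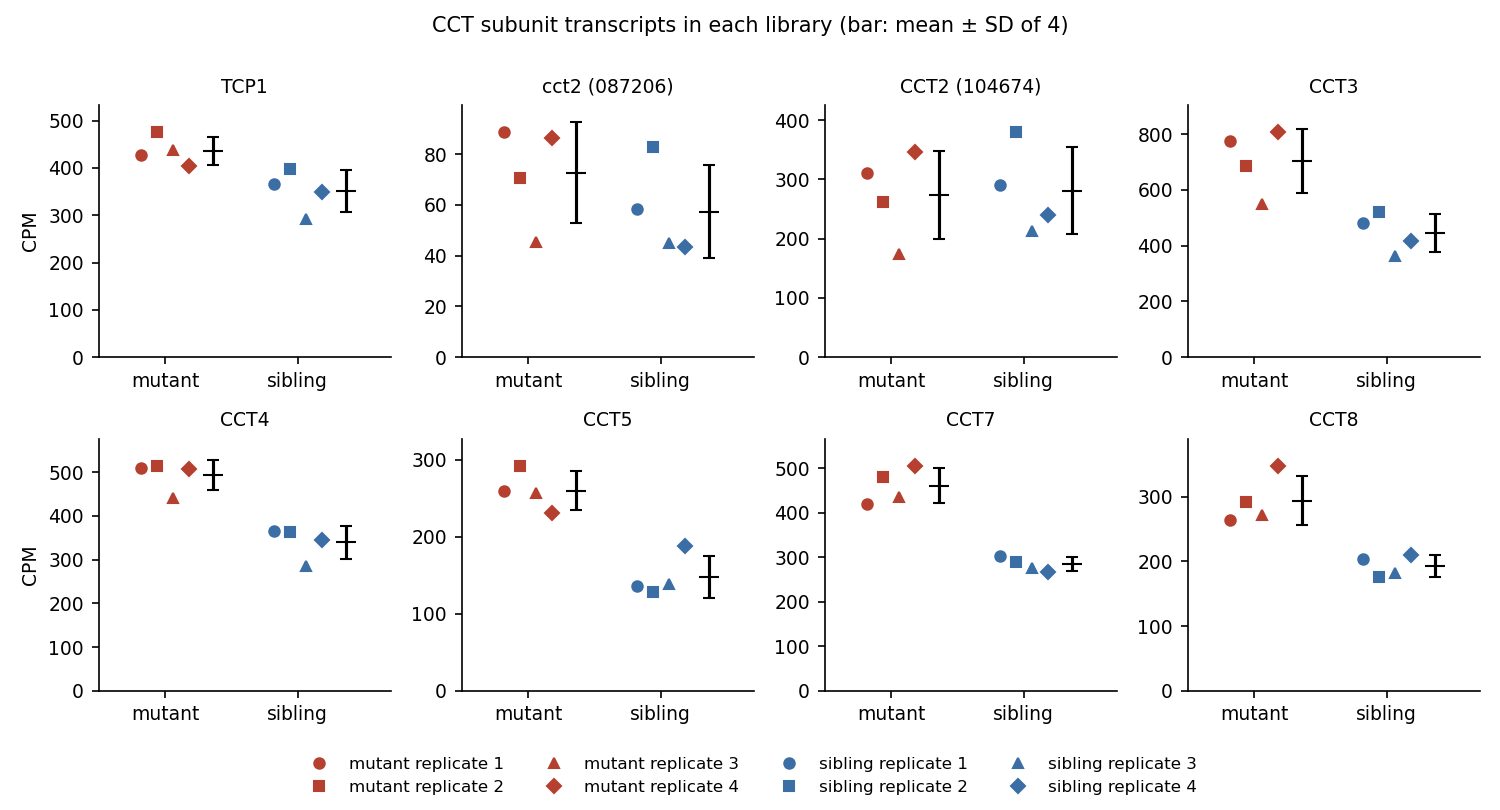
Level of each CCT subunit row in CPM (vertical axis, starting at 0) in the 4 mutant and 4 sibling libraries, with 1 point per library and the mean ± SD beside them. In CCT3, CCT4, CCT5, CCT7, CCT8 and TCP1 all mutant points lie above all sibling points, and in both cct2 panels, named by the last digits of the identifier, the groups overlap.

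The subunits fall on opposite sides of the ring. Work in yeast placed CCT4, CCT2, CCT5 and CCT7 on the side that binds ATP tightly and TCP1, CCT3, CCT8 and CCT6 on the side that binds it weakly. On the first side, CCT5 (ENSDARG00000045399), the epsilon subunit, had 259.9, 291.8, 256.8 and 231.0 CPM in mutant libraries 1 to 4, against 135.6, 128.5, 138.9 and 187.7 CPM in sibling libraries 1 to 4. The groups did not overlap, sibling library 4 lay nearest to the mutants, and mutant library 4 was the lowest mutant. CCT5 averaged 259.9 ± 24.9 CPM in mutant, against 147.7 ± 27 CPM in sibling libraries, a log2 fold change of 0.82 ± 0.154 (SE; edgeR adjusted p = 0.00157). It was the largest fold change of the family, at 1.76 with a 95% interval of 1.4 to 2.21.

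CCT7 (ENSDARG00000007385), the eta subunit, had 419.7, 481, 436.4 and 505.2 CPM in mutant libraries 1 to 4, against 303.8, 289.5, 276.1 and 267.7 CPM in sibling libraries 1 to 4. The sibling values lay close together and well under the mutant ones. Their coefficient of variation, the SD as a share of the mean, was 5.56%, the smallest of any member in either group. CCT7 rose by a log2 fold change of 0.70 ± 0.126 (adjusted p = 0.00116, edgeR), the member with the smallest p. CCT4 (ENSDARG00000013475), the delta subunit, had 511, 514.5, 441.5 and 507.9 CPM in mutant libraries 1 to 4, against 365.9, 362.9, 285.2 and 346.1 CPM in sibling libraries 1 to 4. Library 3 was the low one in either group, and the groups did not overlap. CCT4 rose by 0.54 ± 0.132 on the log2 scale (adjusted p = 0.00888, edgeR), the smallest rise that passed.

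The beta subunit, CCT2, is on the same side of the ring and was counted at 2 identifiers. The row with more counts, CCT2 (ENSDARG00000104674), had 310.4, 261.1, 174.5 and 346.8 CPM in mutant libraries 1 to 4, against 290.9, 379.8, 213.7 and 240.03 CPM in sibling libraries 1 to 4. The groups overlapped throughout, with the lowest value in mutant library 3 and the highest in sibling library 2. Its log2 fold change was -0.04 ± 0.215 (edgeR adjusted p = 0.926), a fold of 0.972 with a 95% interval of 0.707 to 1.34, and its sign turned under upper-quartile scaling. The second row, cct2 (ENSDARG00000087206), had 88.6, 70.5, 45.4 and 86.4 CPM in mutant libraries 1 to 4, against 58.3, 82.9, 44.9 and 43.4 CPM in sibling libraries 1 to 4. Mutant library 3 again was the low mutant and sibling library 2 the high sibling, and the log2 fold change of 0.34 ± 0.247 did not pass (adjusted p = 0.381, edgeR). Reads of 2 copies of 1 gene can be split between them in counting, so the single rows are uncertain. With both rows summed, a step added after the values were seen, cct2 averaged 346 ± 94 CPM in mutant, against 338 ± 91.2 CPM in sibling libraries (SD, n = 4 each; log2 fold change 0.03 ± 0.216, edgeR adjusted p = 0.943). The second row held 21 ± 0.963% of the cct2 counts in mutant libraries and 16.8 ± 1.13% in sibling libraries, and the lowest mutant share, 19.9%, was above the highest sibling share, 17.9%. The spread between libraries was wider for cct2 than for the rest of the family. The coefficient of variation of either row was 26% to 31.9% in the groups, against 5.56% to 18.3% in the other members.

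On the side that binds ATP weakly, CCT3 (ENSDARG00000016173), the gamma subunit, had 776.2, 684.6, 547.7 and 807.1 CPM in mutant libraries 1 to 4, against 479.8, 519.8, 363.9 and 417.4 CPM in sibling libraries 1 to 4. The groups did not overlap, but mutant library 3 came near to sibling library 2. CCT3 averaged 704 ± 116 CPM in mutant, against 445 ± 68.7 CPM in sibling libraries, and its log2 fold change was 0.66 ± 0.157 (edgeR adjusted p = 0.00726). CCT8 (ENSDARG00000008243), the theta subunit, had 264.4, 292, 272.2 and 347.4 CPM in mutant libraries 1 to 4, against 204.4, 175.9, 182.6 and 210.6 CPM in sibling libraries 1 to 4. Mutant library 4 stood above the other mutants, and no mutant value reached down to the siblings. The log2 fold change of CCT8 was 0.60 ± 0.14 (adjusted p = 0.00625, edgeR).

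TCP1 (ENSDARG00000017891), the alpha subunit that gave the complex its older name, had 427.6, 475.6, 437.4 and 403.1 CPM in mutant libraries 1 to 4, against 366.1, 397.4, 291.2 and 349.7 CPM in sibling libraries 1 to 4. All mutant values were above all sibling values, but mutant library 4 exceeded sibling library 2 by little. Its log2 fold change of 0.31 ± 0.135 did not pass over all genes (edgeR adjusted p = 0.119, unadjusted 0.0353), with a 95% interval of the fold of 1.02 to 1.52. The row named CCT6B, chosen after its values were seen, had 454.3, 454.2, 404.5 and 503.7 CPM in mutant libraries 1 to 4, against 395.8, 364.6, 280.7 and 326.7 CPM in sibling libraries 1 to 4. These groups did not overlap, and the log2 fold change of 0.41 ± 0.141 lay just outside the threshold (edgeR adjusted p = 0.0513). It passed with DESeq2 (adjusted p = 0.0307), with total counts only (0.0360), with upper-quartile factors (0.0253), with the replicate block (0.0364) and without mutant replicate 3 or sibling replicate 1, so its call depends on the setting.

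**Figure D2:**
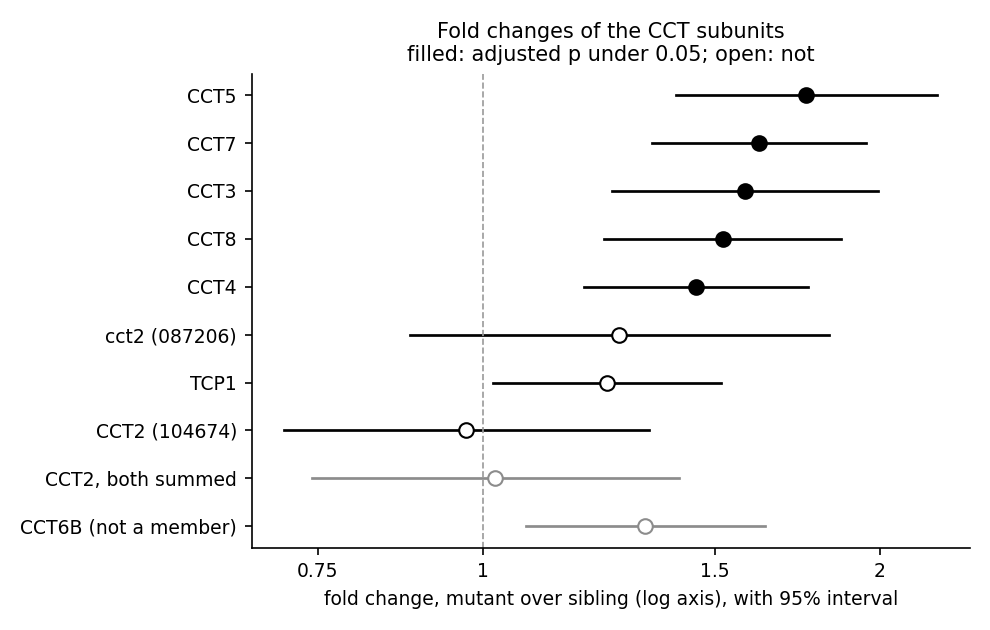
Fold change of each CCT subunit row in mutant over sibling libraries (horizontal log axis) with its 95% interval, in falling order, followed by cct2 with both identifiers summed and by CCT6B. The 5 filled members, from CCT5 at 1.76 to CCT4 at 1.45, passed the adjusted threshold, and CCT2 at 0.972 is the only member below 1.

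In the order of fold changes, CCT5 was followed by CCT7, CCT3, CCT8 and CCT4, then by the smaller cct2 row, TCP1 and CCT2. The 95% intervals of all neighbours in this order overlapped, and so did those of the 5 risers with each other and with TCP1. The interval of CCT2, which ended at 1.336, lay below those of CCT7, which began at 1.344, and CCT5, which began at 1.401. The difference between these subunits was not itself tested. Both sides of the ring held subunits that passed and subunits that did not.

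The makeup of the CCT counts is given as a description, without a test. CCT2 (ENSDARG00000104674) held 9.01 ± 1.82% of the summed CCT counts in mutant libraries and 13.2 ± 2.12% in sibling libraries (SD, n = 4 each), with 10.7% in the highest mutant and 11.6% in the lowest sibling. TCP1 held 14.7 ± 1.86% in mutants and 16.7 ± 0.37% in siblings, and these ranges overlapped. CCT3 held 23.4 ± 2.12% in mutants and 21.1 ± 1.03% in siblings, CCT7 15.4 ± 1.24% in mutants and 13.6 ± 1.29% in siblings, and CCT5 8.74 ± 1.21% in mutants and 7.12 ± 1.62% in siblings. CCT4 kept about the same share, with 16.5 ± 0.549% in mutants and 16.2 ± 0.591% in siblings. Shares are of reads and not of molecules, since longer transcripts give more reads, and no transcript lengths of the annotation used were at hand. They are therefore compared between groups and not between subunits.

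**Figure D3:**
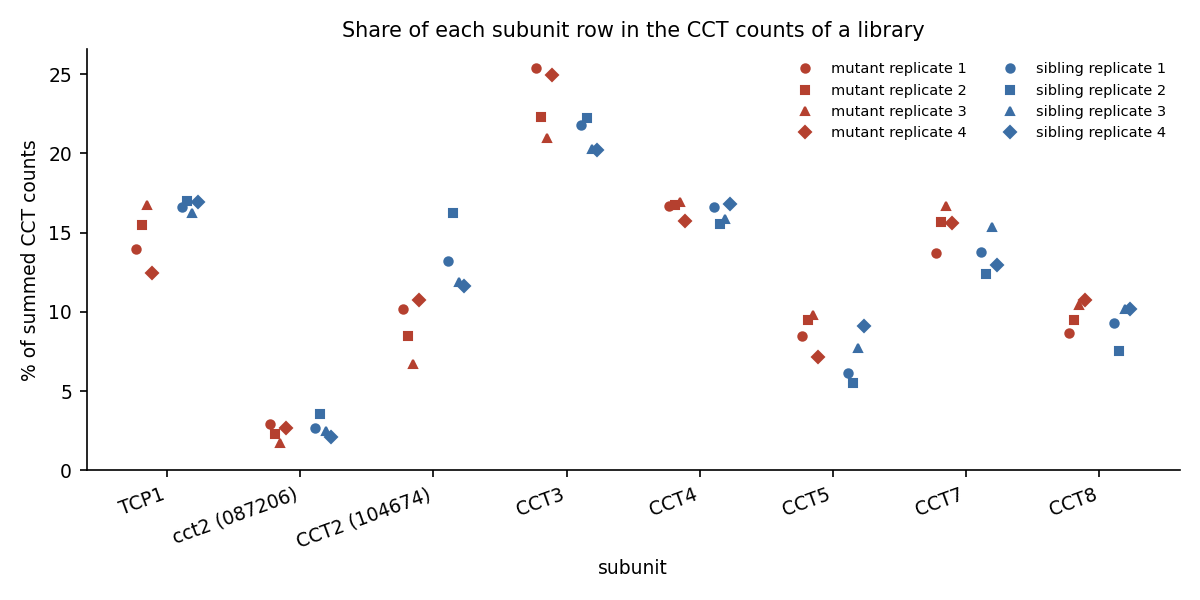
Share of each row in the summed CCT counts of a library (vertical axis, percent, starting at 0), with 1 point per library and mutants to the left of siblings. The CCT2 row ENSDARG00000104674 is the one whose mutant points, at most 10.7%, all lie below the sibling points, at least 11.6%.

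Within a group, the subunits varied together only in part. Relative to its group, mutant library 3 was low in 7 of 8 rows, with 1 row above the mutant mean, and sibling library 3 was below the sibling mean in all, with 0 rows above it. Mutant library 4 and sibling library 2 lay far from the rest of their groups along the second principal component of the 2000 most variable genes. Each had 6 of 8 rows above its group mean and the highest summed CCT level of its group, but not all rows shifted one way. Mutant library 4 had the highest mutant values of CCT3, CCT7, CCT8 and CCT2 but the lowest of TCP1 and CCT5. Sibling library 2 had the highest sibling values of TCP1, CCT3 and both cct2 rows but the lowest of CCT5 and CCT8. Without both libraries the same 5 members passed, with log2 fold changes of 0.66 for CCT3, 0.54 for CCT4, 0.79 for CCT5, 0.64 for CCT7 and 0.46 for CCT8.

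**Figure D4:**
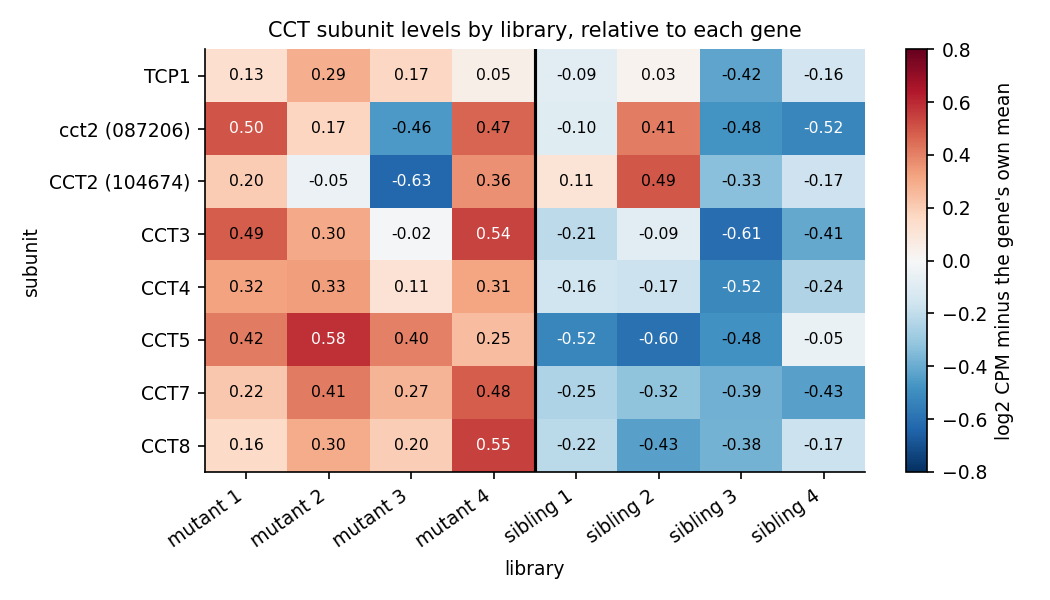
Level of each CCT subunit row (vertical) in each library (horizontal, mutants left of the line) as log2 CPM minus the gene's own mean over the 8 libraries, red above and blue below it. CCT4, CCT5, CCT7 and CCT8 are red in all 4 mutants and blue in all 4 siblings, whereas CCT2 is at -0.63 in mutant library 3 and 0.49 in sibling library 2.

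Genes outside the family with the most similar pattern were sought by the root mean square difference of such centred log2 CPM values from the mean profile of the 8 rows, over the 8 libraries and 10454 genes with a symbol and an average log2 CPM of at least 3. Nearest was TM9SF4 (ENSDARG00000002536), a membrane protein gene, at 0.0398, followed by ETFDH (0.0748), an electron transfer enzyme gene of mitochondria, the RNA-binding protein gene FXR1 (0.0773), the ribosome biogenesis gene WDR3 (0.0802) and the condensin gene NCAPD3 (0.0821). The profile holds the difference between the groups, so genes picked by it are higher in mutants by selection. Their calls describe them and are no separate support. Of these, NCAPD3 rose (log2 fold change 0.65 ± 0.156, edgeR adjusted p = 0.00779). TM9SF4 (0.45 ± 0.147, adjusted p = 0.0414, edgeR) and FXR1 (0.49 ± 0.166, edgeR adjusted p = 0.0489) rose too, but either call was lost without any 1 of mutant replicates 1, 2 and 4 and sibling replicates 1, 3 and 4. Both calls were also lost with no filter (adjusted p = 0.0683 for TM9SF4 and 0.0536 for FXR1, edgeR), that of FXR1 without the robust option (0.0541) and that of TM9SF4 without both mutant replicate 4 and sibling replicate 2 (0.0603). Over all single libraries left out, TM9SF4 ranged over 0.40 to 0.53 and FXR1 over 0.41 to 0.58 on the log2 scale. Each member is part of the mean profile and the other genes are not, which brings members nearer to it. Among the members, CCT4 stood nearest to the family mean, at 0.0614, and only TM9SF4 was nearer. CCT2 was farthest, at 0.348, with 2235 of the 10454 other genes nearer than it.

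Prefoldin, which delivers clients to the chaperonin, was represented by 9 genes together with its relatives. Of these 3 rose (33.3%, beside 9.92% of all genes tested) and none fell, with a median log2 fold change of 0.15. PFDN2 (ENSDARG00000025391) averaged 61.9 ± 9.73 CPM in mutant, against 31.9 ± 2.12 CPM in sibling libraries (log2 fold change 0.96 ± 0.183, edgeR adjusted p = 0.00173). URI1, a prefoldin-like gene, averaged 118 ± 19.7 CPM in mutant, against 64.8 ± 10.8 CPM in sibling libraries (0.86 ± 0.179). PFDN6 rose by 1.05 ± 0.297 on the log2 scale, a call lost without mutant replicate 1 or 2 or sibling replicate 3 or 4 (0.90 to 1.34). The prefoldin subunit genes PFDN4 (0.09 ± 0.248), PFDN5 (0.15 ± 0.305), VBP1 (-0.33 ± 0.231) and PFDN1 (-0.32 ± 0.254) did not pass. The relative uxt stood at 4.25 ± 1.53 CPM in mutant, against 7.98 ± 2.27 CPM in sibling libraries and did not pass (adjusted p = 0.179, edgeR).

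Of 6 genes for phosducin-like proteins and other partners of the chaperonin or of Hsp70, 2 rose and none fell, where 9.92% of all genes tested were called higher. These were the Hsp70 co-chaperone genes BAG3 (ENSDARG00000039486), with 677 ± 178 CPM in mutant, against 149.7 ± 57.7 CPM in sibling libraries (log2 fold change 2.18 ± 0.278, edgeR adjusted p = 0.000136), and HSPBP1, with 189.6 ± 14.3 CPM in mutant, against 76.7 ± 34.9 CPM in sibling libraries (1.31 ± 0.278). PDCL, whose product helps the chaperonin to assemble G protein beta subunits, stood at 37.2 ± 7.59 CPM in mutant, against 45 ± 8.59 CPM in sibling libraries (edgeR adjusted p = 0.418), and PDCD5, which binds the chaperonin, at 27.8 ± 5.07 CPM in mutant, against 19.6 ± 4.24 CPM in sibling libraries (adjusted p = 0.166, edgeR). PDCL3 (edgeR adjusted p = 0.88) and TXNDC9 (adjusted p = 0.797, edgeR) did not pass either. The 2 calls of this list were thus both of Hsp70 co-chaperone genes. Of 5 factors that meet chains at the ribosome, 2 rose, beside the same 9.92%, and none fell: HSPA14, which the Hsp70 list also holds, and BTF3L4 (log2 fold changes 1.15 ± 0.173 and 1.11 ± 0.243). Neither naca nor DNAJC2 passed (-0.52 ± 0.216 and 0.69 ± 0.355), and DNAJC2 passed with the replicate block (0.73, edgeR adjusted p = 0.0475).

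The Hsp70 and Hsp90 chaperones of the cytosol included larger rises than any CCT subunit. Of 26 genes of the Hsp70 and Hsp90 system, 15 rose (57.7%, beside 9.92% of all genes tested) and none fell, with a median log2 fold change of 0.86. Their summed levels overlapped, with 18273 to 26142 CPM in mutant and 14211 to 21025 CPM in sibling libraries. The members with the highest levels did not pass. These were HSPA8 (ENSDARG00000068992, log2 fold change 0.211 ± 0.113), HSP90AB1 (0.0193 ± 0.129), HSP90AA1 (0.13 ± 0.492) and hsp70l (1.3 ± 0.552, edgeR adjusted p = 0.151). Of these, hsp70l averaged 2637 ± 840 CPM in mutant, against 1074 ± 682 CPM in sibling libraries, with overlap. A second HSPA8 row (ENSDARG00000037403) rose by 4.2 ± 0.55 on the log2 scale (edgeR adjusted p = 0.000639). It averaged 206 ± 83.2 CPM in mutant, against 11.3 ± 6.89 CPM in sibling libraries. The heat shock factor gene hsf1 (ENSDARG00000008818) averaged 197.6 ± 16.7 CPM in mutant, against 49.7 ± 7.06 CPM in sibling libraries (log2 fold change 1.99 ± 0.156, edgeR adjusted p = 1.46e-06). The Hsp70 gene hspa1b rose by 3.84 ± 0.364 and the Hsp90 gene hsp90aa1.1 by 2.2 ± 0.266. Of the 4 other chaperonin and chaperonin-like genes tested, the mitochondrial pair rose. HSPD1 (ENSDARG00000056160), the ring protein Hsp60, averaged 365 ± 58.7 CPM in mutant, against 124 ± 33.3 CPM in sibling libraries (1.56 ± 0.195, edgeR adjusted p = 6.44e-05). HSPE1, its lid Hsp10, averaged 54.6 ± 16.7 CPM in mutant, against 16.2 ± 3.98 CPM in sibling libraries (1.75 ± 0.261). The chaperonin-like genes MKKS and bbs12, whose products act in assembly of the BBSome of cilia, were near the limit of detection, at 2.15 ± 1.47 and 3.9 ± 1.94 CPM in mutant, against 1.49 ± 1.94 and 3.29 ± 2.15 CPM in sibling libraries, and did not pass.

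**Figure D5:**
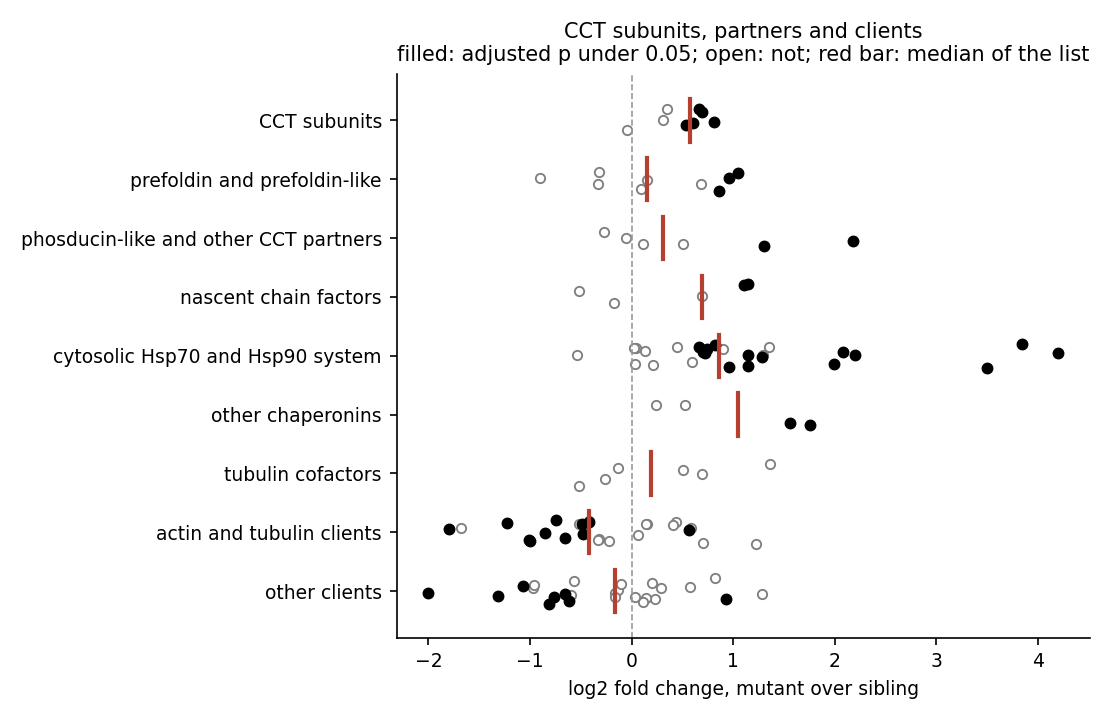
Log2 fold change of mutant over sibling (horizontal axis) of every gene tested in the CCT family and in lists of its partners and clients, 1 point per gene, filled where the adjusted p was under 0.05, with the median of each list as a red bar. The CCT rows lie between -0.04 and 0.82, the Hsp70 and Hsp90 system reaches 4.2, and 10 actin and tubulin genes are filled to the left of 0.

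Many transcripts of the main clients were lower in the mutants. Of 25 genes for actins, tubulins and their relatives, 10 fell (40%, beside 11.4% of all genes tested), 1 rose and 14 did not pass, with a median log2 fold change of -0.42. Their summed level was 7650 to 9300 CPM in mutant libraries and 11451 to 12603 CPM in sibling libraries, without overlap. Most of this sum came from the beta actin genes actb2 and actb1, whose levels are given below. The beta actin gene actb2 (ENSDARG00000037870) averaged 3532 ± 400 CPM in mutant, against 5574 ± 253 CPM in sibling libraries (log2 fold change -0.66 ± 0.115, edgeR adjusted p = 0.000887). The beta tubulin genes tubb1 (-1.23 ± 0.191) and tubb6 (-1.80 ± 0.41) and actr3 of the Arp2/3 complex (-1.01 ± 0.21) fell as well. The other beta actin gene actb1, chosen after its values were seen, averaged 2588 ± 442 CPM in mutant, against 3612 ± 480 CPM in sibling libraries (-0.48 ± 0.143, edgeR adjusted p = 0.0263). Its call was lost without any 1 of mutant replicates 1, 2 and 3 and sibling replicates 1, 3 and 4 (-0.60 to -0.41). It was also lost with upper-quartile factors (edgeR adjusted p = 0.0546). The single gene that rose was the gamma tubulin gene TUBG1 (0.57 ± 0.176), a call likewise lost without any 1 of mutant replicates 1, 2 and 4 and sibling replicates 2, 3 and 4 (0.50 to 0.64). The TUBG1 call was also lost with no filter (edgeR adjusted p = 0.0515) and without both mutant replicate 4 and sibling replicate 2 (0.0967). Actin and tubulin genes have close copies among which reads can be split, so single rows are uncertain. Without sibling replicate 1 only 4 genes of this list fell, and without both libraries that stood apart 6 fell. The neural markers, among them tubb5, which both lists hold, were lower in the mutants too, by the sums given above, and their part in these falls was not tested.

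Tubulin cofactors, which take tubulin on from the chaperonin, gave no call in 6 genes, either with edgeR or with DESeq2, and 0 of them had an unadjusted p under 0.05. TBCB had the highest level, 71.9 ± 16.1 CPM in mutant, against 86.5 ± 29.9 CPM in sibling libraries. Of 25 other clients, 1 rose (4%, beside 9.92% of all genes tested) and 7 fell (28%, beside 11.4%), with a median log2 fold change of -0.16. The gene that rose was ppp2r2aa, for a phosphatase subunit with WD40 repeats, with 67.5 ± 11.2 CPM in mutant, against 35.4 ± 5.01 CPM in sibling libraries (log2 fold change 0.93 ± 0.191, edgeR adjusted p = 0.0028). The G protein beta subunit gene gnb1a averaged 183 ± 33.3 CPM in mutant, against 289 ± 20 CPM in sibling libraries (-0.66 ± 0.149, edgeR adjusted p = 0.00544). STAT3 (-1.32 ± 0.163) and FZR1 (-1.07 ± 0.207), an activator of the anaphase-promoting complex, fell. The related activator gene CDC20, chosen after its values were seen and a known client of the chaperonin in yeast and human cells, averaged 43.9 ± 9.37 CPM in mutant, against 67.5 ± 10.1 CPM in sibling libraries (-0.62 ± 0.199, edgeR adjusted p = 0.0384). Its call was lost without mutant replicate 1 or 4 or sibling replicate 1, 2 or 3 (-0.72 to -0.50). The CDC20 call was also lost with upper-quartile factors (edgeR adjusted p = 0.0671) and without both mutant replicate 4 and sibling replicate 2 (0.101).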

How the data were processed

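Total RNA of kdrl-positive cells was depleted of ribosomal RNA and made into libraries with a SMARTer stranded kit, per the labels' protocols. STAR 2.4.2a, Cufflinks 2.2.1, Picard, Trim Galore and the GRCz10 build are named in the submitters' processing notes, with no roles. What counted the reads, on which strand and with which annotation is not given in the sources used here. Raw counts per Ensembl gene were deposited, whole numbers without normalization, which do not tell spliced from unspliced RNA. Intervals assume no PCR duplicates, since no molecular identifiers are named.

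Symbols came from a table of Ensembl names, found for 29178 of 31901 identifiers. edgeR 4.0.16 in R 4.3.3 was run on all 8 libraries with group as the only factor (TMM, filterByExpr with smallest count 10 and total 15, robust glmQLFit, glmQLFTest, Benjamini-Hochberg adjustment over 18289 genes, threshold 0.05). The SE is the log2 fold change divided by the square root of F, and 95% intervals use the t distribution of the fit. The script was tested on simulated data. Chi-square statistics per degree of freedom within groups were 14.7 to 51.1, so no libraries were duplicates.

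The members, lists and tests were chosen with earlier results of these data known. Named genes are the members, sf3b1, kdrl, the 4 genes with the smallest p in each list and the 5 nearest profiles. CCT6B, CDC20, TUBG1, actb1, both HSPA8 rows, HSP90AB1, HSP90AA1, hsp70l, PDCL3, TXNDC9 and gata1a were added after their values were seen. The same holds for PFDN1, PFDN4, PFDN5 and VBP1. Alternatives were RLE, total-count and upper-quartile scaling, no filter, DESeq2 1.42.0, a fit without robust, the replicate block and leaving out libraries. No sequences or positions are given. One listed client gene is not reported here and was taken out of its list.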

Additional observations from a re-analysis of the deposited data

Results flagged for a closer look

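Among 16 groups of 4 values (8 rows in mutants and in siblings), 1 held a library far from the rest. CCT4 (ENSDARG00000013475) had 441.5 CPM in mutant replicate 3, below the other mutant libraries, and the gap took up 0.911 of the group's range, above the critical value for 4 samples. Chance gives such a gap in about 1 of 20 groups. Without mutant replicate 3 the log2 fold change of CCT4 was 0.59 (edgeR adjusted p = 0.0103).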

How the results depend on the processing

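The 5 members called higher were called in all 16 alternatives, and no member was called lower in any. On leaving out single libraries, log2 fold changes ran from 0.58 to 0.76 for CCT3, 0.46 to 0.59 for CCT4, 0.74 to 0.95 for CCT5, 0.65 to 0.74 for CCT7 and 0.52 to 0.65 for CCT8, and TCP1 (0.23 to 0.36) and cct2 (0.23 to 0.56) stayed uncalled. CCT2 was at 0.026 with upper-quartile factors and at -0.18 to 0.12 without single libraries. The sign of bbs12, never called, turned without sibling replicate 1 (-0.16 to 0.70 without single libraries or without the pair below). The cause of these turns was not tested. In actin and tubulin genes, 2 rose with DESeq2, 0 without the filter and 0 to 2 without single libraries, and 6 fell without mutant replicate 4 and sibling replicate 2 together, 4 to 10 without single libraries. Of the other clients, 2 rose with the replicate block, 2 without that pair of libraries and 1 to 2 without single libraries (2 without mutant replicate 3 or sibling replicate 2). Upper-quartile factors gave 2062 genes higher and 1806 lower among all tested. Whether replicate numbers pair the libraries is not given by the labels and could not be settled from the counts. Deviations from the group means correlated at -0.0593 to 0.162 between same-numbered libraries, and 0 of 4 mutants matched their own number best. These correlations rest on few libraries, while the kdrl level climbed from replicate 1 to 4 in both groups. With the replicate block, 1746 genes were higher and 2036 lower, and the same 5 members passed, while kdrl, CCT6B, WDR3 and DNAJC2 passed as well, the last raising the nascent chain factors called higher to 3, against 2 without the block. Depth was no limit for the members, whose lowest count was 474.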
